A study of Homo sapiens with 10 samples.

Results

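YAP1 and WWTR1 (TAZ), the coactivators at the end of the Hippo pathway, were followed together with a TEAD partner, a Hippo kinase, proteins that bind the pathway and well-known target genes, 10 genes in all of 58037 gene identifiers in the deposited tables. The 10 genes were YAP1, WWTR1, TEAD1, LATS2, AMOTL2, AJUBA, CCN1, CCN2, ANKRD1 and AXL, and each symbol was matched to 1 Ensembl identifier. They were selected on values of the same libraries, since results of the A549 and A549/DDP inputs were known when the list was drawn up. Their levels and changes are therefore given as a description, without a test. The cells were A549, a human lung adenocarcinoma line, and A549/DDP, a line resistant to cisplatin (DDP) that descends from it. Both were grown in RPMI medium with fetal bovine serum and were at passage 10 or lower, and the labels give no cisplatin treatment of the sampled cultures. Each line had 2 input libraries, of RNA not pulled down, and 2 m6A-seq libraries, in which RNA fragments were pulled down with an antibody against N6-methyladenosine. A further pair of A549 inputs, of an experiment left unnamed by its labels, is given apart. The labels do not say whether replicates came from separate cultures, so the p-values measure only the spread between these libraries.

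The Hippo pathway limits growth and links gene expression to cell shape, density and stiffness of the surroundings. Its kinases MST1 and MST2 (genes STK4 and STK3) activate LATS1 and LATS2, which phosphorylate YAP and TAZ and so keep them in the cytoplasm or mark them for degradation. Unphosphorylated YAP and TAZ enter the nucleus, bind TEAD factors on DNA and raise the transcription of genes such as CCN1, CCN2 and ANKRD1. In lung adenocarcinoma the pathway is studied for its part in proliferation, invasion and drug tolerance. YAP and TAZ are regulated largely at the level of the protein, which RNA libraries do not measure.

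Expected counts per library summed to 35286514 and 34570074 in the A549 inputs and to 29225501 and 33971561 in the A549/DDP inputs. The label of a lung epithelial line was checked against marker genes by their TPM, a level scaled for transcript length. Of 6 epithelial markers, all were above 0 in both A549 inputs and in A549/DDP replicate 1, and KRT19 was at 0 in A549/DDP replicate 2. Their summed TPM was 8621 and 11389 in A549 and 16047 and 15991 in A549/DDP, with KRT7 the most abundant in A549 replicate 1 and KRT8 in the other 3 libraries. The sum hides opposite changes, since CDH1, KRT8 and KRT18 were higher in A549/DDP, with log2 fold changes of 2.26, 1.57 and 1.18 (edgeR's adjusted p = 0.0220, 0.0324 and 0.0146), and KRT7 was lower, at -1.66 (edgeR's adjusted p = 0.0117). KRT19 also had a negative value, -3.30, but did not pass (edgeR's adjusted p = 0.221), and EPCAM had -0.07. CDKN2A, which is deleted in A549, had a TPM of 0.29 and 0 in A549 and 1.03 and 0.08 in A549/DDP. The 7 fibroblast markers summed to a TPM of 15.3 and 7.62 in A549 and 22.8 and 3.67 in A549/DDP, with COL1A1 the most abundant in each. Their log2 fold changes also went both ways, at -3.71 for THY1 and from 0.41 to 3.55 for COL1A1, COL1A2, COL3A1 and DCN. None of these named genes passed in edgeR, and PDGFRB and LUM had too few counts to be tested. PDGFRB was at 0 in A549 replicate 2 and LUM in A549/DDP replicate 2. The 4 endothelial markers summed to at most 0.40 in any of these libraries, with PECAM1, CDH5 and VWF the most abundant in 1 library each and all 4 at 0 in A549/DDP replicate 2. The 4 leukocyte markers summed to 0.87 and 0.25 in A549 and 2.33 and 4.86 in A549/DDP, where CD14 led in 3 libraries and LYZ in A549 replicate 2. CD3E was at 0 in all 4 of these libraries, and PTPRC was at 0 in replicate 2 of each line.

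The target genes CCN1, CCN2 and ANKRD1 had far less RNA in A549/DDP than in A549, while the RNA of YAP1 and WWTR1 differed little. AXL, AMOTL2, AJUBA, LATS2 and TEAD1 lay between these extremes, all lower in A549/DDP. Of the 10 genes, 9 had both A549/DDP inputs below both A549 inputs in CPM (counts per 1e6 counts, here normalized by edgeR's TMM method), and in YAP1 the lines overlapped. Among all 16406 genes tested, 32.7% lay below and 29.7% above in the same sense. A log2 fold change of -3 or lower was found for 5 of the 10 genes and for 5.56% of all genes tested. The median log2 fold change was -3.10 over the 10 genes and 0.00 over all genes tested (-0.0016 before rounding). Since the genes were chosen with this contrast known, nothing is read from these shares. In bulk RNA, fewer cells with a transcript and less of it in each cell cannot be told apart.

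**Figure D1:**
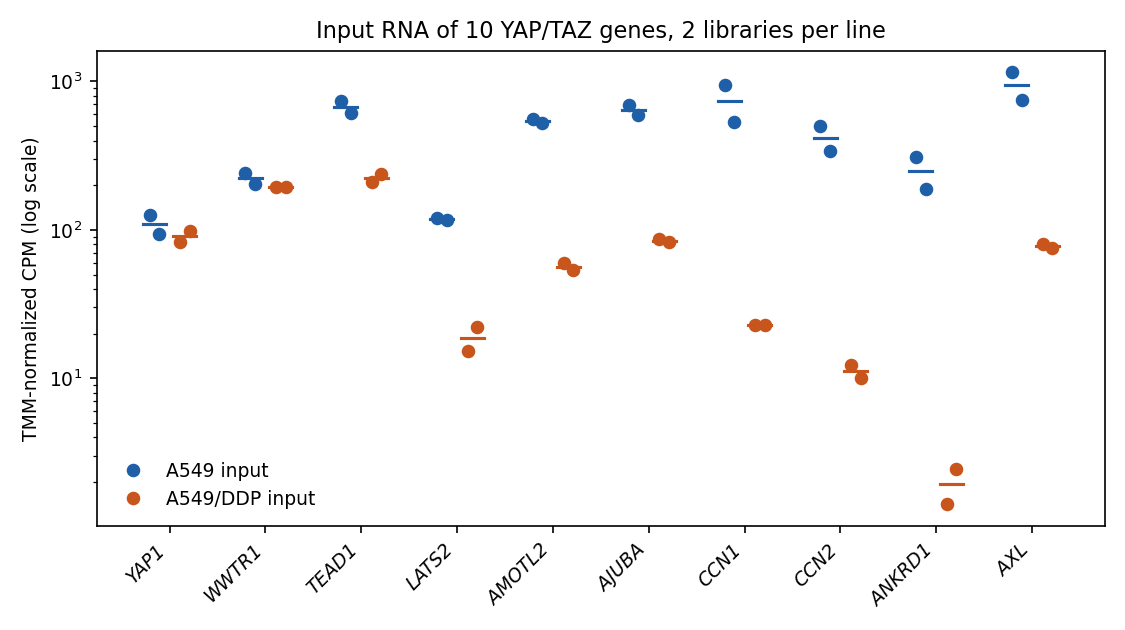
TMM-normalized CPM (log scale) of the 10 genes in each input library, with A549 in blue, A549/DDP in orange and a line at the mean of 2 libraries. The lines overlap for YAP1 and lie furthest apart for ANKRD1, at 312 and 189 CPM in A549 and 1.42 and 2.47 CPM in A549/DDP.

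YAP1 (ENSG00000137693.13) had 126 and 94.1 CPM in the A549 inputs and 82.6 and 98.6 CPM in the A549/DDP inputs. The libraries of the lines overlapped, though not without A549 replicate 2 or without A549/DDP replicate 2, and the log2 fold change from A549 to A549/DDP was -0.28, with a standard error (SE, approximate) of 0.22. WWTR1 (ENSG00000018408.14), which encodes TAZ, had 241 and 203 CPM in A549 and 194 and 196 CPM in A549/DDP. Both A549/DDP libraries lay just below the lower A549 library, and the log2 fold change was -0.19 (SE 0.17). On the FPKM scale, which divides by transcript length, WWTR1 differed more, with 170 and 146 in A549 and 119 and 90.1 in A549/DDP. The effective length that the authors' counting assigned to WWTR1 differed as well, at 1327 and 1424 bases in A549 and 1654 and 2230 bases in A549/DDP (2229.5 before rounding). On log2(FPKM + 1) the difference between the lines was -0.60, and on log2(TPM + 0.1) it was -0.67.

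TEAD1 (ENSG00000187079.15), a DNA-binding partner through which YAP and TAZ act, had 734 and 618 CPM in A549 and 210.4 and 238 CPM in A549/DDP. The libraries did not overlap, and the log2 fold change was -1.59 (SE 0.17), a level 3.01 times higher in A549. With the second A549 pair the sign turned, to 0.32, and WWTR1 likewise had 0.50 there. The median of all genes was 0.80 in that fit, and relative to it TEAD1 had -0.47 and WWTR1 -0.30. That median rests mostly on genes with few counts in the second pair, so these relative values are not read as falls.

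LATS2 (ENSG00000150457.8), the kinase that phosphorylates YAP and TAZ and is itself known as one of their targets, had 121 and 117 CPM in A549 and 15.3 and 22.2 CPM in A549/DDP. Its level was 6.32 times higher in A549, with a log2 fold change of -2.66 (SE 0.25), and the lines did not overlap. Its effective length was 5197 and 4048 bases in A549 and 2835 and 2271 bases in A549/DDP. The FPKM of LATS2, at 21.7 and 29.6 in A549 (29.55 before rounding) and 5.48 and 10.1 in A549/DDP (10.05 before rounding), therefore differed less than its counts, by -1.64 on log2(FPKM + 1). AMOTL2 (ENSG00000114019.14) encodes an angiomotin-like protein that binds YAP and TAZ at cell junctions and is also a known target. It had 557 and 529 CPM in A549 and 59.4 and 53.9 CPM in A549/DDP, and the lines did not overlap. Its log2 fold change was -3.26 (SE 0.17), a level 9.59 times higher in A549. AJUBA (ENSG00000129474.15), a LIM-domain protein that can restrain LATS kinases, had 696 and 592 CPM in A549 and 86.6 and 82.2 CPM in A549/DDP. The groups lay well apart, with a log2 fold change of -2.93 (SE 0.17) and a level 7.63 times higher in A549. With the second A549 pair the log2 fold change was -1.84 for LATS2 and -1.08 for AJUBA, whose value with both pairs was -2.38.

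CCN1 (ENSG00000142871.16) and CCN2 (ENSG00000118523.5) encode secreted proteins of the extracellular matrix, formerly CYR61 and CTGF, and are the genes most used as readouts of YAP and TAZ. CCN1 had 950.2 and 536 CPM in A549 and 22.8 and 23.0 CPM in A549/DDP. The A549 replicates differed widely, but the lower one was still far above both A549/DDP libraries, and the log2 fold change was -5.02 (SE 0.33), a level 32.4 times higher in A549. CCN2 had 498 and 339 CPM in A549 and 12.2 and 10.1 CPM in A549/DDP. With a log2 fold change of -5.23 (SE 0.28), its level was 37.4 times higher in A549, and again no libraries of the lines overlapped. With the second A549 pair the log2 fold change was -5.75 for CCN1 and -3.82 for CCN2. ANKRD1 (ENSG00000148677.6), an ankyrin repeat protein of the nucleus and of muscle that responds to stretch and YAP activity, had 312 and 189 CPM in A549 and 1.42 and 2.47 CPM in A549/DDP. These A549/DDP values rest on 42 and 86 expected counts, against 10254 and 6684 in A549. The log2 fold change of ANKRD1 was -7.00 (SE 0.43), a level 128 times higher in A549. It was -7.95 with the second A549 pair. AXL (ENSG00000167601.11) encodes a receptor tyrosine kinase that binds the ligand GAS6, and its gene is a reported YAP target. It had 1152 and 749 CPM in A549 and 80.1 and 75.9 CPM in A549/DDP, with no overlap, a log2 fold change of -3.61 (SE 0.25) and a level 12.2 times higher in A549.

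**Figure D2:**
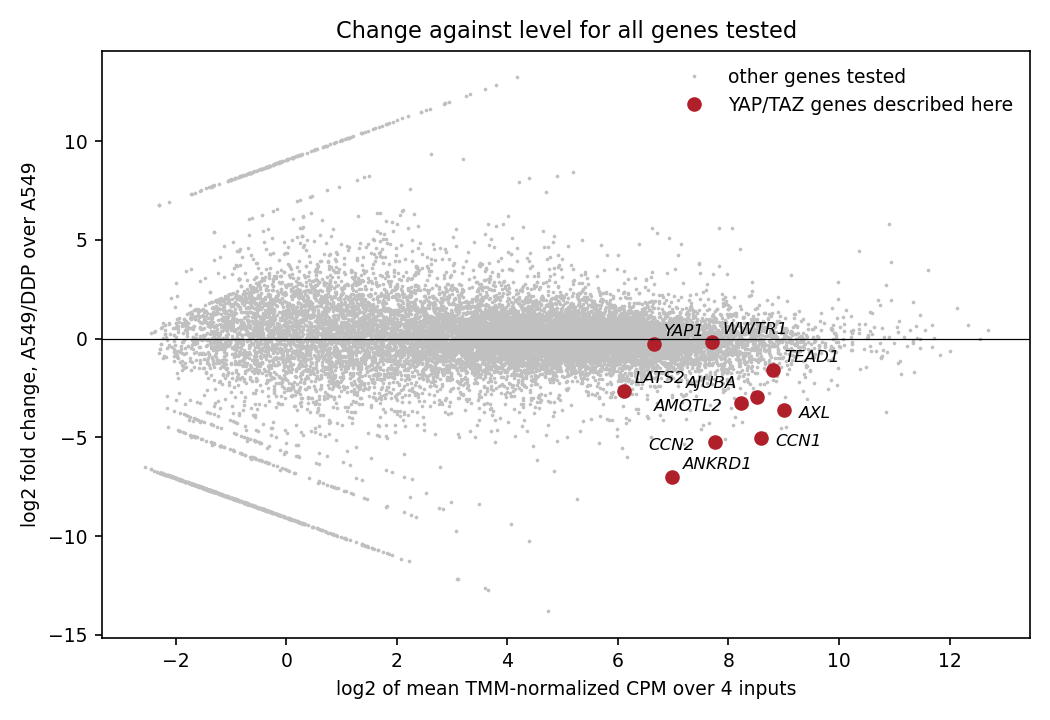
Log2 fold change (A549/DDP over A549) against the log2 of the mean CPM over the 4 inputs for 16406 genes tested (grey) and the 10 genes (red); the slanted lines of grey points are genes with few or no counts in 1 line, whose fitted changes depend on the fit. ANKRD1 lies lowest of the 10, at -7.00, and WWTR1 highest, at -0.19.

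Levels of different genes were compared by TPM. In A549 the most abundant of the 10 were CCN1, with a TPM of 678 and 408, and AXL, with 527 and 451. AJUBA, CCN2, TEAD1, WWTR1, AMOTL2 and ANKRD1 followed, with TPM from 168 to 330.2. In this order the ranges overlapped between neighbours from AJUBA to AMOTL2, and ANKRD1, with 241 and 168, lay below AMOTL2. YAP1, with 68.7 and 49.3, and LATS2, with 33.6 and 47.5, were the lowest. In A549/DDP the order of these TPM levels was different, with WWTR1, TEAD1 and YAP1 at the top. WWTR1 led with 180.3 and 136, followed by TEAD1 with 89.2 and 95.5, and YAP1 with 50.04 and 66.8. CCN1 had a TPM of 16.6 and 21.2, LATS2 8.32 and 15.2, CCN2 8.49 and 7.10 and ANKRD1 1.17 and 2.07. Per length, WWTR1 RNA thus exceeded CCN1 RNA in both A549/DDP libraries and lay below it in both A549 libraries.

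TEAD factors bind a short element whose core is GGAATG, read as CATTCC on the other strand. Promoter windows from 250 bases before to 50 bases after the gene start were available from RefSeq (GRCh38.p14) for 8 of the 10 genes, as 12 windows, and CCN1 and TEAD1 had none. The element was searched on both strands with no mismatch. It occurred in at least 1 window of 7 of the 8 genes and in 7 of the 12 windows, and among all 35116 windows of this length 14.0% held it. By gene, 16.7% of 27305 genes had it in at least 1 window. Neither window of WWTR1 held these letters. The window of CCN2 held 3 copies, and 0.128% of all windows held 3 or more. ANKRD1 had 2 copies, and 1.37% of all windows held 2 or more. The genes were listed as YAP/TAZ regulators and targets, which act through TEAD factors, so nothing is read from these shares. In LATS2 the single copy began 9 bases after the gene start, counted from 0, and is not printed. The stretches before the gene start that hold the element are shown for the 5 genes with lower counts in A549/DDP and for YAP1, whose lines overlapped. They read in the direction of transcription, with the element in capitals. The CCN2 stretch is chr6:131951450-131951553 on the minus strand, from -181 to -78 bases relative to the gene start. The ANKRD1 stretch is chr10:90921198-90921319 on the minus strand, from -232 to -111. The AMOTL2 stretch, of its second listed start, is chr3:134374499-134374528 on the minus strand. The AJUBA stretch, also of a second start, is chr14:22976884-22976913 on the minus strand. The AXL stretch, of a second start, is chr19:41226531-41226560 on the plus strand, and that of YAP1 is chr11:102110273-102110302 on the plus strand. A match describes the letters and does not show that a factor binds there.
CCN2: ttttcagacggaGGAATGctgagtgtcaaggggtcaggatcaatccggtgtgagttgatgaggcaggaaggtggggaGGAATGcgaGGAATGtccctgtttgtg
ANKRD1: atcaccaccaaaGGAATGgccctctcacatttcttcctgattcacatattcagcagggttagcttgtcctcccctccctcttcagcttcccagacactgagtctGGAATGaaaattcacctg
AMOTL2: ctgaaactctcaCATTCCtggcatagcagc
AJUBA: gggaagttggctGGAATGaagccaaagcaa
AXL: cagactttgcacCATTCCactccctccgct
YAP1: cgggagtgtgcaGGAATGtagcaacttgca

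In CCN2 the copies stood at -169, -104 and -95, the latter 2 with 3 bases between them. The copies in ANKRD1 stood further apart, at -220 and -128. All 5 copies in these 2 windows read GGAATG in the direction of transcription, as did those of AJUBA at -59 and YAP1 at -162, whereas the copies of AMOTL2 at -69 and AXL at -212 were read as CATTCC.

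Other genes of the pathway were taken from 5 lists of 57 genes in all, of which 51 had enough counts to be tested with edgeR over all genes. Of these 51 genes, 16 were lower and 1 was higher in A549/DDP at an adjusted p under 0.05, which is 33.3% of them. Over all 16406 genes tested, 14.9% passed, 8.0% lower and 6.85% higher in A549/DDP. The median log2 fold change of the 51 genes was -0.70. The lists were drawn up with earlier results of these libraries known, so their counts are a description. The count of 17 genes fell to 10 with limma on log2(TPM + 0.1) and to 6 with both pairs of A549 inputs, and it rose to 26 without A549 replicate 2. When the first A549 pair was replaced by the second, 14 passed, of which 8 were higher and 6 lower in A549/DDP. All genes moved as well, since 27.2% of them passed in that fit and 63.1% of those were higher, against 46.1% with the first pair. The median of the 50 pathway genes tested there was 0.14, against 0.80 over all genes.

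Of 15 further genes reported as YAP/TAZ targets, 8 fell in A549/DDP, none rose and 7 did not pass, and the median log2 fold change was -1.28. GADD45A, a stress-induced regulator of growth arrest, had 1137 and 430.3 CPM in A549 and 28.0 and 29.8 CPM in A549/DDP. Its log2 fold change was -4.76 (SE 0.49, edgeR's adjusted p = 0.00459). Its A549 replicates differed widely from each other, and with 1 of them left out the value ranged from -5.31 to -3.91. NUAK2, a kinase that feeds back on YAP, had 422 and 402 CPM in A549 and 39.5 and 46.4 CPM in A549/DDP, a log2 fold change of -3.26 (SE 0.18, edgeR's adjusted p = 0.00156). TGFB2, a secreted growth factor, fell by 2.81 on the log2 scale (SE 0.22, edgeR's adjusted p = 0.00273). CRIM1, a transmembrane protein that binds BMPs, fell from 1953 and 1391 CPM to 313 and 344 CPM, by 2.35 on the log2 scale (edgeR's adjusted p = 0.00337). It passed in 12 of 13 alternatives, not with both pairs, and its value was -1.48 with the second A549 pair. Smaller falls were found for MYOF, DOCK5, ASAP1 and CCDC80, from -1.55 to -1.07 on the log2 scale. Over 13 alternatives DOCK5 passed in 9, CCDC80 in 10, and MYOF and ASAP1 in 11 each, and none of these 4 passed with the second A549 pair or with both pairs. IGFBP3, which binds insulin-like growth factors, did not pass, with 1565 and 946 CPM in A549 and 1992 and 1812 CPM in A549/DDP (edgeR's adjusted p = 0.158). It passed as higher in A549/DDP in 5 of 13 alternatives, DESeq2 among them.

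Among 20 upstream regulators and binding proteins, 19 were tested, 6 fell, 1 rose and 12 did not pass. AMOT was too low to be tested, with at most 16 expected counts in a library. FRMD6, a FERM protein at the membrane end of the pathway, had 222 and 85.5 CPM in A549 and 12.1 and 10.3 CPM in A549/DDP, a log2 fold change of -3.78 (SE 0.48, edgeR's adjusted p = 0.00779). This value was -2.94 without A549 replicate 1 and -4.32 without A549 replicate 2. PTPN14, a phosphatase that binds YAP, fell by 2.43 on the log2 scale (SE 0.21, edgeR's adjusted p = 0.00304). The scaffold proteins WWC1 and WWC2 (KIBRA and its relative), which promote LATS activity, fell by 1.33 and by 1.51, and STRN3, a subunit of the phosphatase complex that opposes the MST kinases, fell by 1.35. The kinases TAOK1 and TAOK2, which can activate MST kinases, moved apart. TAOK1 had 258 and 245 CPM in A549 and 140.4 and 120.3 CPM in A549/DDP, and TAOK2 had 95.6 and 101 CPM in A549 and 213 and 206 CPM in A549/DDP. Their log2 fold changes were -0.95 and 1.09 (edgeR's adjusted p = 0.0186 and 0.0110). Over 13 alternatives, STRN3 passed in 8, TAOK1 in 7, TAOK2, WWC1 and WWC2 in 10 each and PTPN14 in 12. For WWC1 these include a pass in the opposite direction, at 1.15 with the second A549 pair, where WWC2 and TAOK1 had 0.09 and 0.16. The median of all genes was 0.80 in that fit, above WWC2 and TAOK1. It rests mostly on genes with few counts in the second pair, so this is not read as a fall. FAT1, MAP4K4, SCRIB, STRN4 and LIMD1, which had a mean of at least 100 CPM, did not pass, with log2 fold changes from -0.73 to 0.48. Of these, MAP4K4 passed as lower in 6 of 13 alternatives, SCRIB as higher in 2, and the other 3 in 1 each.

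None of the 6 genes of the Hippo kinase cassette passed in edgeR's test, while 3 had an unadjusted p under 0.05, LATS1 and SAV1 with lower and MOB1A with higher values in A549/DDP. Of all genes tested, 32.7% had such a p. LATS1 passed in 5 of 13 alternatives, DESeq2 and the replicate block among them, and limma passed none of the 6 on either scale. LATS1, the partner of LATS2, had 48.3 and 46.0 CPM in A549 and 19.0 and 27.1 CPM in A549/DDP, a log2 fold change of -1.04 (SE 0.28, edgeR's adjusted p = 0.0594). With the second A549 pair its value was 1.46 and did not pass. The log2 fold changes of STK3, SAV1 and MOB1B were -0.81, -0.79 and -0.72, and those of STK4 and MOB1A were 0.13 and 0.46. Here SAV1 is the scaffold of the MST kinases, and MOB1A and MOB1B are the coactivators of LATS. Of 7 TEAD factors and cofactors other than TEAD1, 5 were tested and TEAD4 alone passed, with 43.3 and 41.7 CPM in A549 and 19.1 and 17.4 CPM in A549/DDP. Its log2 fold change was -1.22 (SE 0.26, edgeR's adjusted p = 0.0305), and it passed in 7 of 13 alternatives. It did not pass in limma on either scale, with the second pair or both pairs, or without either A549/DDP replicate. TEAD2 and TEAD3 had values of 0.90 and 1.10 and did not pass, nor did the vestigial-like cofactors VGLL3 and VGLL4, at 0.11 and -0.08. TEAD2 passed as higher in 1 of 13 alternatives, with the second A549 pair, where its counts were 0 in both libraries. VGLL1 and VGLL2 were not tested, with at most 1 expected count in a library.

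Relatives of the 10 genes were mostly low, and of 9 listed, 6 were tested. ANKRD2, a relative of ANKRD1, had 28.8 and 19.5 CPM in A549 and 0 counts in both A549/DDP inputs. It is among the 17 pathway genes that passed, but it met the filter through its A549 counts alone. Nothing is therefore read from its p-value. With a floor of 3 counts in each A549/DDP library, its level was at least 258 times higher in A549. The other 5 tested did not pass, and CCN3, CCN4 and CCN6 had too few counts to be tested.

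**Figure D3:**
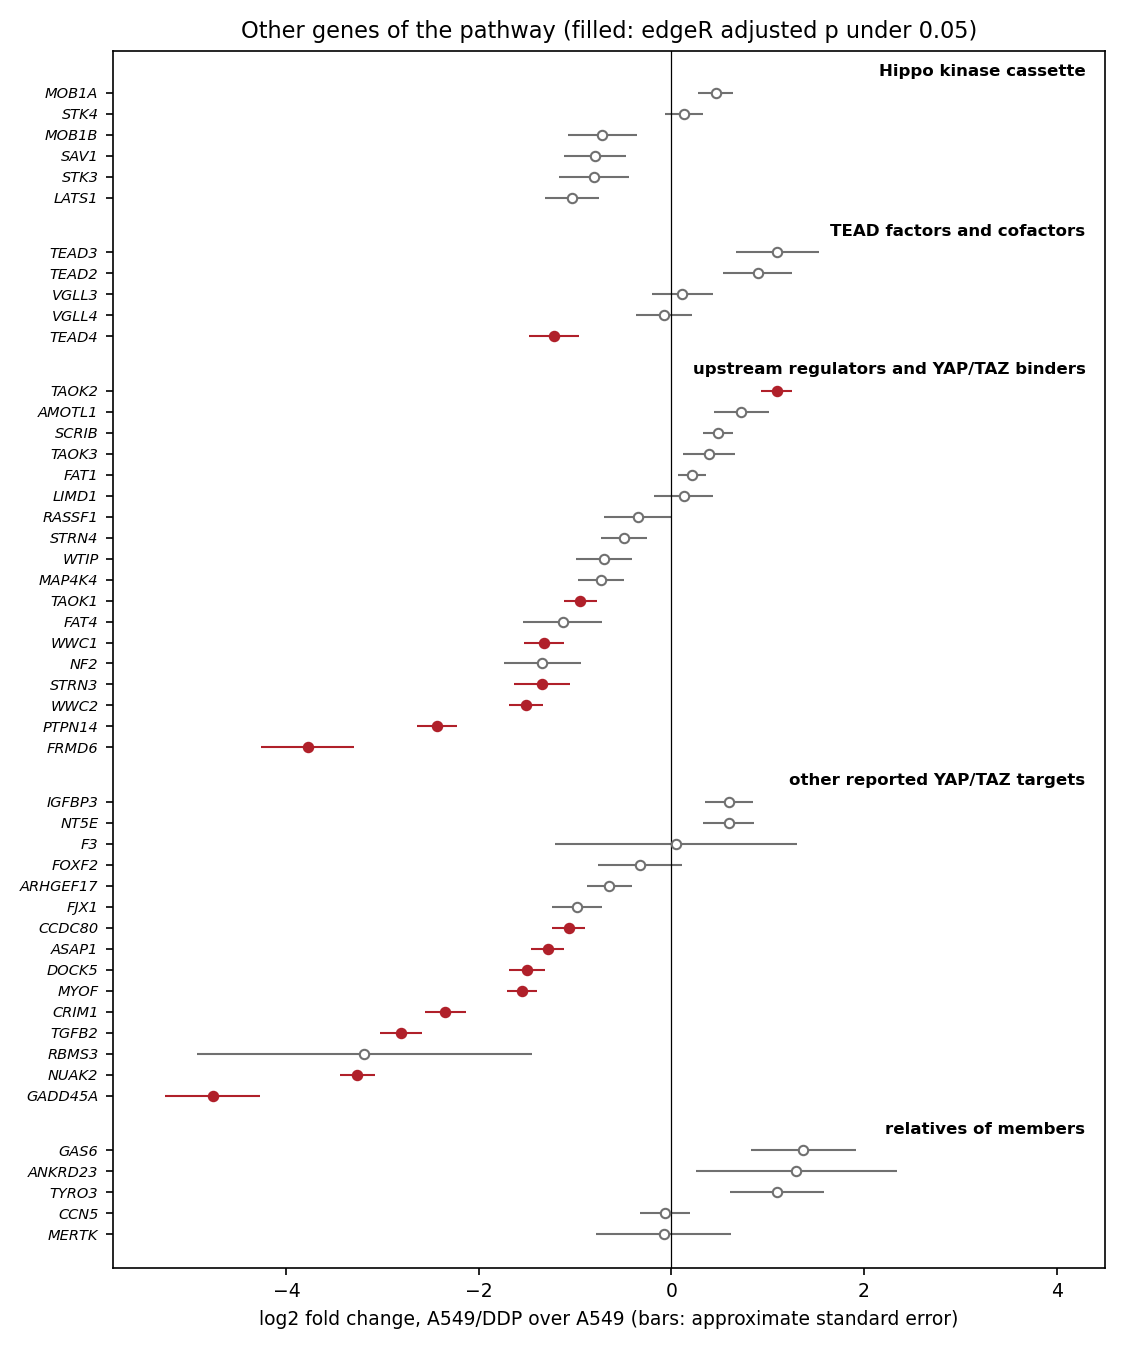
Log2 fold change (A549/DDP over A549) of 49 tested pathway genes in 5 lists, with bars of 1 approximate standard error and filled points at an edgeR adjusted p under 0.05; DCHS1 and ANKRD2, each at 0 in both inputs of 1 line, are not drawn. Most filled points lie below 0, with GADD45A lowest at -4.76, and TAOK2 is the filled point above 0, at 1.09.

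GADD45A, FRMD6, NUAK2 and TGFB2 passed in the same direction under all 13 alternatives run. ANKRD2 entered 11 of these through its A549 counts alone, so its passes there do not show stability. It was not tested with at least 10 counts in every library or with the second A549 pair. When the second pair of A549 inputs replaced the first, the median log2 fold change of all genes was 0.80. The 6 genes that had fallen but then had positive values were WWC1 at 1.15, MYOF at 0.53, TAOK1 at 0.16, ASAP1 at 0.12, WWC2 at 0.09 and TEAD4, whose second-pair counts were 0. Of these, WWC1 alone lay above that median and had counts in the second pair, and it passed in the direction opposite to its fall with the first pair (edgeR's adjusted p = 0.00393).

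The second pair of A549 inputs was shallow, at 855034 and 982036 expected counts. Mitochondrial genes held 75.2% and 73.9% of these. To set it beside the other inputs, counts of the 10 genes were given per 1e6 counts outside mitochondrial genes, a scale chosen after the data were seen. On this scale CCN1 had 633 in both second-pair libraries, from 134 and 162 counts, against 886 and 550 in the first A549 pair (549.9 before rounding) and 23.2 and 23.6 in A549/DDP. ANKRD1 had 255 and 246 in the second pair, from 54 and 63 counts, against 291 and 193 in the first pair and 1.44 and 2.53 in A549/DDP. For these 2 genes the second pair lay inside the range of the first pair. AXL, AMOTL2 and CCN2 lay between the first A549 pair and A549/DDP. The values of CCN2 were 75.5 and 85.9 in the second pair, from 16 and 22 counts. They were 464 and 348 in the first pair and 12.4 and 10.4 in A549/DDP. AJUBA, with 80.3 and 102 in the second pair, and LATS2, with 51.9 and 19.5, overlapped with A549/DDP. These second-pair values rest on 17 and 26 counts for AJUBA and 11 and 5 for LATS2. YAP1, WWTR1 and TEAD1 were lower in the second pair than in either A549/DDP library, and for TEAD1 the values were 99.2 and 85.9 against 213.5 and 244. The second-pair counts were 9 and 11 for YAP1, 19 and 14 for WWTR1 and 21 and 22 for TEAD1. With TMM in edgeR and the second pair in place of the first, the log2 fold changes of YAP1, TEAD1 and WWTR1 were 0.12, 0.32 and 0.50, which is -0.68, -0.47 and -0.30 relative to the median of all genes. On the same scale relative to that median, CCN1 had -6.54, ANKRD1 -8.75 and CCN2 -4.62. Only 4162 genes reached 10 counts over the second pair, while 13815 genes were tested in that fit. The median therefore rests mostly on genes with few counts there and is not a firm baseline. The libraries of the second pair differed from the first in depth and mitochondrial share as well, and the part of either in these values was not tested.

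**Figure D4:**
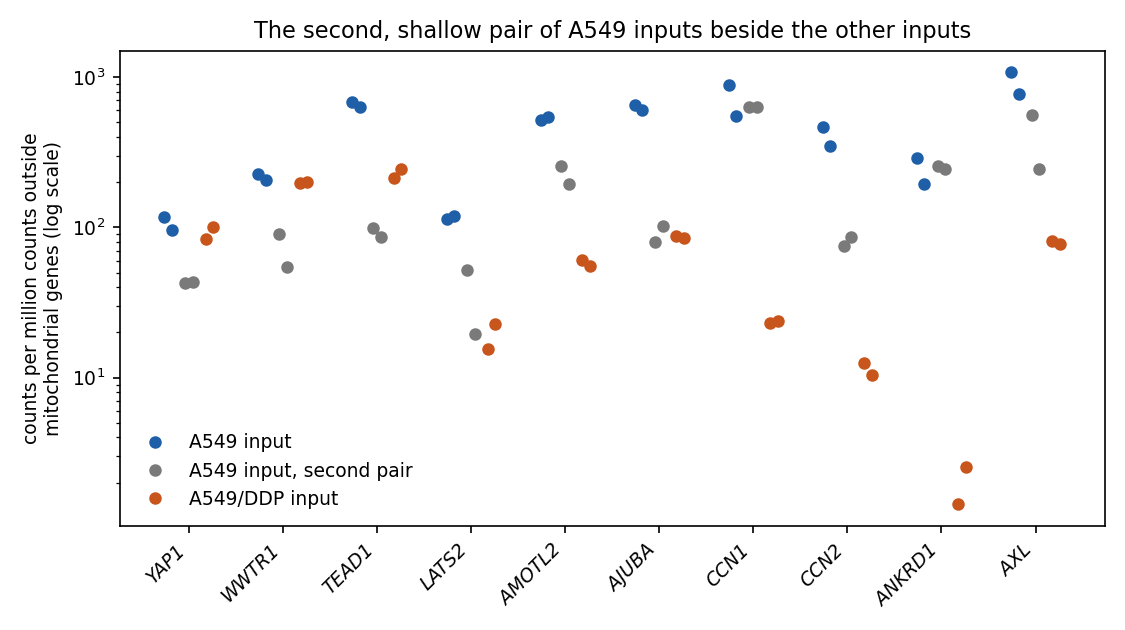
Counts per 1e6 counts outside mitochondrial genes (log scale) of the 10 genes in the first pair of A549 inputs (blue), the second pair (grey) and the A549/DDP inputs (orange), 2 libraries each. For CCN1 and ANKRD1 the grey points lie beside the blue ones, and for YAP1, WWTR1 and TEAD1 they lie below the orange ones.

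Called m6A peaks mark stretches of RNA enriched in the pull-down over the input, and the lists give a position, exon blocks, a gene and a p-value but no depth. The lists held 26320 and 14576 peaks for A549 and 27244 and 10661 for A549/DDP (replicates 1 and 2), of which 22 and 12, and 42 and 20, were in the 10 genes. AMOTL2 and AJUBA were the 2 of the 10 genes with a peak in all 4 libraries, and of all genes tested in the inputs 13.9% had one. ANKRD1 had no peak in any library, as did 43.0% of all genes tested. After merging of same-strand peaks whose exon blocks had a base in common, the 10 genes had 46 regions. Of these, 4 regions were called in both A549/DDP libraries and neither A549 library, and none the other way round. Over all 37903 regions the shares were 3.09% and 6.12% with all libraries. The numbers 4 and 0 depended on the libraries. With a library left out, its line was judged by the remaining library alone, a looser rule. The numbers then became 5 and 6 without A549 replicate 2, against 1495 and 11607 of 37448 regions of all genes. Without A549 replicate 1 they were 6 and 1, against 2328 and 4246 of 31362. Without A549/DDP replicate 1 they were 8 and 5, against 2767 and 5588 of 29453. Without A549/DDP replicate 2 they were 22 and 0, against 11478 and 2647 of 37020. The lists also entered the choice of the genes, so nothing is read from the comparison.

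CCN1 had more called peaks in A549/DDP, where its RNA was low, than in A549. A549 replicate 1 had no CCN1 peak, A549 replicate 2 had 1, and each A549/DDP library had 3. In A549/DDP both libraries held a region near the gene start, at chr1:85580810-85580957, and a region at chr1:85581998-85582195, neither of which was called in A549. A region of 639 exonic bases at chr1:85582571-85583324, from 1810 to 2563 bases after the gene start, was called in both A549/DDP libraries and in A549 replicate 2. All coordinates of regions are those of the lists (hg38, counted from 1), and CCN1 lies on the plus strand. AXL also had peaks in A549/DDP alone, 2 in replicate 1 and 3 in replicate 2. A single region of AXL, at chr19:41257613-41259933 on the plus strand, with 398 exonic bases toward the end of the gene, was shared by both A549/DDP libraries. A gene-level pattern of peaks in both A549/DDP libraries and neither A549 library was found for 1.97% of all genes tested. CCN2 showed the reverse, with 1 peak in each A549 library and none in A549/DDP. The CCN2 peaks were at different places, chr6:131951224-131951323 in replicate 1 and chr6:131949171-131949320 in replicate 2, with authors' p-values of 0.0072 and 0.017. Of all genes tested, 4.62% had this pattern at the level of the gene.

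In AMOTL2, on the minus strand of chromosome 3, peaks were called at 5 regions. A region of 1995 exonic bases at chr3:134356173-134360108, near the end of the gene and overlapping 2 peaks listed under other names, was called in all 4 libraries, as were those at chr3:134360208-134361705 and chr3:134367540-134371720. The region at chr3:134361805-134366536 was called in both A549/DDP libraries and in neither A549 library. AJUBA had 1 region called in all 4 libraries, at chr14:22978824-22982592 on the minus strand, whose blocks at the start of the gene also overlapped peaks listed under other genes. Its other region, at chr14:22973167-22973466, was called in 3 libraries and not in A549/DDP replicate 2.

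YAP1, WWTR1, LATS2 and TEAD1 differed in peaks between the replicates of at least 1 line. In YAP1 there were 5 and 1 peaks in the A549 libraries and 8 and 0 in the A549/DDP libraries. WWTR1 had 7 peaks in A549/DDP replicate 1 and none elsewhere, and LATS2 had 4 and 4 in A549 and 6 and 0 in A549/DDP. TEAD1 had 4 and 0 peaks in A549 and 6 and 5 in A549/DDP. A region near the end of TEAD1, at chr11:12942188-12942687 on the plus strand, was called in both A549/DDP libraries and in A549 replicate 1. For YAP1, WWTR1, LATS2 and TEAD1 the presence of a peak in a line thus rested on the replicate in at least 1 line. Without A549/DDP replicate 2, the genes with a peak in all remaining libraries numbered 4, against 2 with all libraries. When peaks with a p-value over 1e-05 were dropped, there were 0 such genes and 28 regions.

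**Figure D5:**
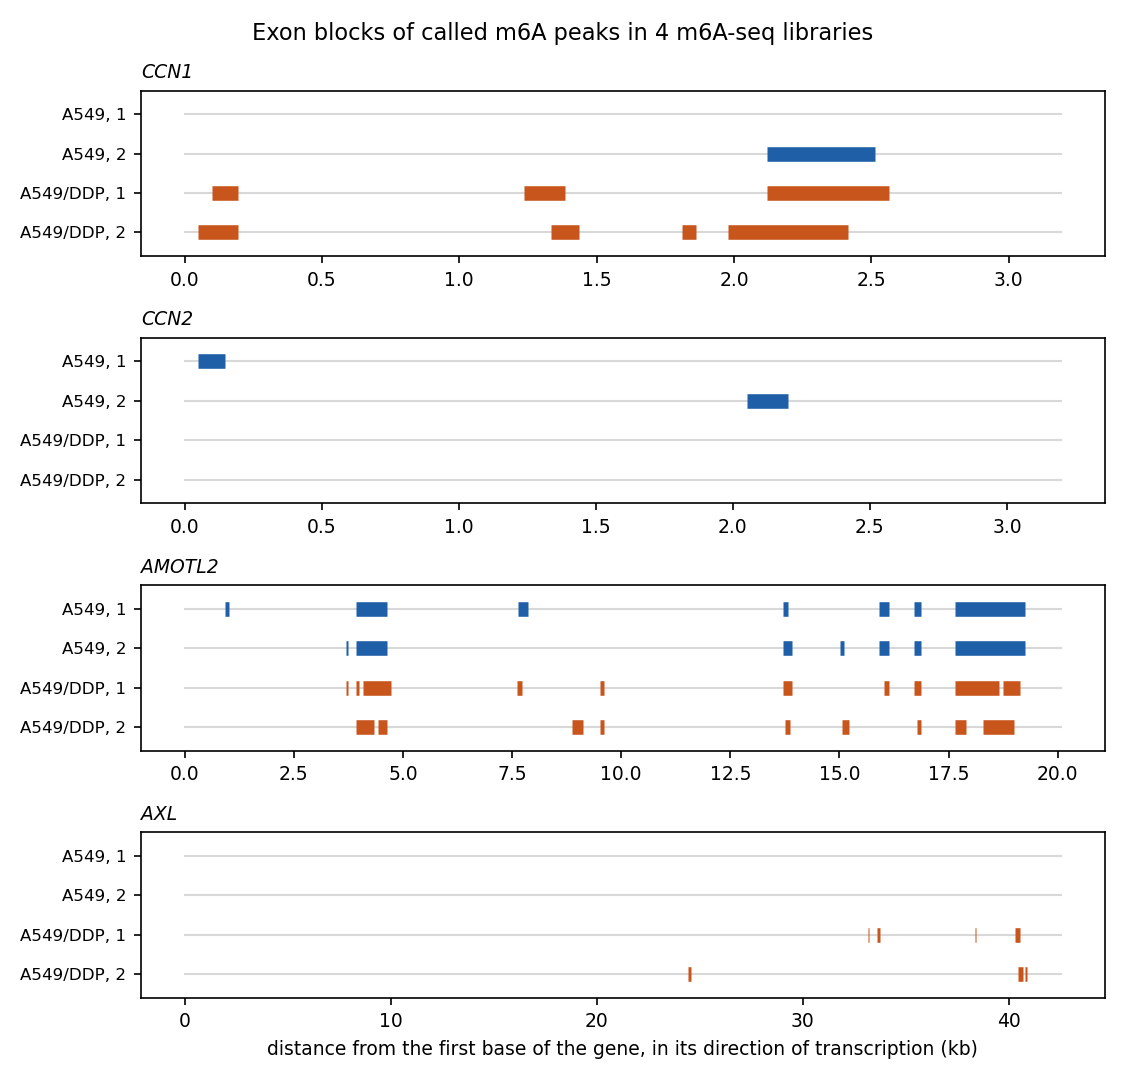
Exon blocks of called m6A peaks in CCN1, CCN2, AMOTL2 and AXL, by distance from the first base of the gene in kb, with 1 row for each m6A-seq library (A549 blue, A549/DDP orange). CCN1 has 3 peaks in each A549/DDP library and 1 in A549 replicate 2, and AMOTL2 has blocks in all 4 libraries near the end of the gene.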

How the data were processed

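Samples were grouped by their labels, and the A549 m6A-seq replicate numbers follow the labels, which are exchanged relative to the file names. For each input, the authors deposited expected counts (estimates, not normalized), TPM and FPKM per gene. The deposited TPM and FPKM are scaled for transcript length and library size. For each m6A-seq library the authors deposited called peaks with a p-value, raw or adjusted not stated. STAR, RSEM, bedtools and hg38 come from the submitters' processing notes, without versions. The peak caller is not given in the sources used here. Libraries were strand-specific, but whether counting used strand is not stated, so values of genes whose spans overlap further annotated genes, which are all of the 10 but CCN1 and ANKRD1, are less certain.

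Rounded expected counts went through the filterByExpr filter and TMM scaling. The test was that of edgeR 4.0.16 (quasi-likelihood, Benjamini-Hochberg over 16406 genes, threshold 0.05) in R 4.3.3, without a block. Standard errors are the log2 fold change over the square root of F, an approximation. DESeq2 1.42.0 and limma 3.58.1 (pseudocounts 1 for FPKM and 0.1 for TPM, mean of at least 1) were alternatives. Counts of replicates differed beyond sampling noise (chi-square per degree of freedom 83.1 in A549, 53.5 in A549/DDP and 2.39 in the second A549 pair). Symbols were matched for 56993 identifiers. Peaks were merged, and motifs searched in RefSeq promoters, with Python 3.11.15, numpy 2.4.6 and pandas 2.3.3, and plots were drawn with matplotlib 3.10.9. No genome sequence was used, so peak sequences and exon or UTR positions were not analysed here, nor were the YTHDF1 RIP-seq libraries.

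The members and lists were chosen with earlier results of these data known. Named genes were the 10 genes, the kinase cassette and TEAD lists, and, in the other lists, up to 8 per list with the largest change among those with an adjusted p under 0.05 in edgeR, and those with a mean of at least 100 CPM. Genes too low to be tested, and DCHS1 as missing from a plot, are named besides. The scale of counts outside mitochondrial genes, and the overlap of the lines with a replicate dropped, were chosen after the data were seen.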

Additional observations from a re-analysis of the deposited data

How the results depend on the processing

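Among all genes, 2437 passed in edgeR. Other settings gave 4278 in DESeq2, 4010 with no filter beyond 1 count, 1177 with limma on log2(TPM + 0.1), 3758 with the second pair of A549 inputs, 677 with both pairs, and 2052 to 3809 when a replicate was left out (the lone library of a line was then assumed to vary like the other line). The 17 calls among pathway genes became 10 with limma on TPM, 6 with both pairs, 14 with the second pair, and 14 to 26 with a replicate left out. With the second pair 8 of the 14 were higher and 6 lower in A549/DDP, against 1 and 16 with the first. Of all genes that passed, 63.1% were higher with the second pair and 46.1% with the first. Of the pathway genes, 8 of the 14 were among the 17, WWC1 in the opposite direction (adjusted p = 0.00393 in edgeR). With the replicate number as a block, 3536 genes and 24 pathway genes passed, all 17 among them. The deviations of same-numbered libraries had a correlation of 0.021. This value cannot show whether the libraries share more than a number, and the pairing is not known from the labels. Over 13 alternatives, 7 of the 10 genes had a log2 fold change below 0 in every fit. YAP1 did in 11, with 0.12 for the second pair and 0.05 on log2(FPKM + 1), and WWTR1 and TEAD1 in 12, with 0.50 and 0.32 for the second pair, which moved the median of all genes to 0.80. The pathway genes that passed in the first fit and turned there were TEAD4 (11.20, with 0 counts in both libraries), WWC1 (1.15), MYOF (0.53), TAOK1 (0.16), ASAP1 (0.12) and WWC2 (0.0939). Named genes that had not passed also turned, which were LATS1 (1.46), MAP4K4 (0.77), STRN4 (0.75), SAV1 (0.06), MOB1A (-0.35) and VGLL4 (1.80). The cause was not tested. Called peaks depended on the threshold and the libraries. At a p-value at or below 1e-05, no gene of the 10 (0) had a peak in all 4 libraries, the 46 regions became 28, and regions in both libraries of a single line numbered 856 in A549 and 742 in A549/DDP. With a library left out these were 2 to 4 genes, 30 to 48 regions, 2647 to 11607 and 1495 to 11478. The line short of a library was then judged by its remaining library alone, a looser rule. Among regions of the 10 genes, those in a single line moved from 0 in A549 and 4 in A549/DDP to 0 and 2 at that threshold. The depth of the m6A-seq libraries is unknown, and the second pair holds too few counts for low genes.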
